A study of Mus musculus with 14 samples.

Results

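Tumor cells from the blood of mice that carried B16F10 melanoma were compared at the ends of a ranking by Car9 and Bnip3, a pair of genes that hypoxia-inducible factors switch on. The ranked cells were those sorted as DP or CTC whose counts of the pigment genes Pmel, Dct, Tyrp1 and Mlana summed to at least 5000 CPM (counts scaled to a common total per cell). Of 301 blood cells labelled DP or CTC, 216 met that minimum, out of 648 cells in the series. Ranked by the sum of Car9 and Bnip3, they were cut into 4 rank groups of 54 cells, of which the highest is called high and the lowest low. The words stand for the rank of these 2 transcripts, since oxygen was not measured.

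All ranked cells of blood and lung came from female C57BL/6J mice aged 6 to 8 weeks. These mice had been given fluorescently labelled B16F10, a melanoma line of the same strain, and no drug. The control cells described below are cultured B16F10 cells and the classes CDP, Duplike and PltLike, which are grouped as naive. Each cell was sorted from blood or lung into a plate and read as its own Smart-seq2 library, which covers whole transcripts. The labels name the sorted classes CTC, DP and WBC without naming the sort markers, and the series title describes candidate hybrids of tumor cells and leukocytes. Samples are the batch labels, numbered here as replicates 1 to 9, and the labels do not say whether they are separate animals, so p-values measure the spread between these samples, which may be technical.

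Hypoxia-inducible factors are made of an alpha subunit and the partner ARNT. With oxygen present, prolyl hydroxylases of the EGLN family mark the alpha subunit, the VHL complex recognises the mark, and the protein is destroyed. When oxygen is short the subunit stays, the pair binds DNA, and genes for glucose uptake, glycolysis, blood vessel growth, acid export and the removal of mitochondria are transcribed. Car9 encodes a carbonic anhydrase of the cell surface that helps to regulate pH, and Bnip3 encodes a receptor for mitophagy on the outer membrane of mitochondria. Melanoma cells can also raise glycolysis and the alpha subunit without a lack of oxygen, so transcripts of this kind mark a programme and not an oxygen level.

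The pair of factors binds a core of ACGTG or GCGTG. The 250 bases before the start of the 2 ranking genes and of 3 genes whose counts rose with them are shown here as examples that hold the core; other called genes lack it in this window, as given after the sequences. Sequences are from RefSeq on GRCm38.p6, 5′ to 3′ on the strand of the gene, with every match to ACGTG or GCGTG on either strand in capitals.
Car9: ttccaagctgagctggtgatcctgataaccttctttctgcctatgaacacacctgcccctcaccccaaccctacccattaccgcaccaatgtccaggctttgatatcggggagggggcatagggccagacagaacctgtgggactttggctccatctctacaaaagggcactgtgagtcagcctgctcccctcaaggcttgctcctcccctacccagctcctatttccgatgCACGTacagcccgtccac
Bnip3: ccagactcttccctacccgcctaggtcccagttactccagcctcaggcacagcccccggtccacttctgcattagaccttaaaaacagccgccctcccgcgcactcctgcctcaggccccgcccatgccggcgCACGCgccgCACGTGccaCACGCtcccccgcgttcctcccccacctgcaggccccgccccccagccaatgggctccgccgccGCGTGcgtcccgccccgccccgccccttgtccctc
Fam162a: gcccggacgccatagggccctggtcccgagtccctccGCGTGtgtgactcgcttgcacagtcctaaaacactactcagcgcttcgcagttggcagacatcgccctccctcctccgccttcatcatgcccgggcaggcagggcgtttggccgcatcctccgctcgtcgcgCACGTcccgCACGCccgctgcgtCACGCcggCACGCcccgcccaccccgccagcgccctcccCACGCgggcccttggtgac
Ero1a: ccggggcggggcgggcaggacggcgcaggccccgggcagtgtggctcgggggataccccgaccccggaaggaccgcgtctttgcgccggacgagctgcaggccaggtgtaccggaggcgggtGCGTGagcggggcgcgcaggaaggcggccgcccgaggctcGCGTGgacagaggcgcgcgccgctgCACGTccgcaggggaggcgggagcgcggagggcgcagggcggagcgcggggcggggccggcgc
Pgk1: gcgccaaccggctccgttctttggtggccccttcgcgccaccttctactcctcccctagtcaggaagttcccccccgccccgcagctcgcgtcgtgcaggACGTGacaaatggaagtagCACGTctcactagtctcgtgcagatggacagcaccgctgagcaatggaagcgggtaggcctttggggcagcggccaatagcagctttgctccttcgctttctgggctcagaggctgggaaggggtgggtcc
These windows lie at chr4:43506776-43507025 on the plus strand for Car9 and chr7:138909507-138909756 on the minus strand for Bnip3. The window of Fam162a is chr16:36071562-36071811 on the minus strand and that of Ero1a is chr14:45318573-45318822 on the minus strand. Pgk1 has its window at chrX:106186850-106187099 on the plus strand. The Car9 window held 1 match, which begins 18 bases before the start, Bnip3 held 5, Fam162a 6, Ero1a 3 and Pgk1 2; the palindrome CACGTG counts as a match on each strand. Of the 20 genes called higher below, 17 had promoters in the table (Bsg, Plod2 and Bnip3l were not matched), and 20 of their 25 promoters (80.0%) held a match. Gpi1 and Tpi1, both called, held 0 matches, as did the first listed promoters of Aldoa, Hk1 and Pkm. Promoters of a gene can overlap, as for Eno1 and Aldoa, so the same site can be counted in more than 1 promoter. A match was held by 56.8% of the 11100 promoters of genes tested and by 38.6% of all 32851 promoters. A match is a description of the letters and not a bound site.

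The ranking separated the cells widely, and replicates gave unequal numbers to its ends. Sums of Car9 and Bnip3 ran from 0.0 to 7065 CPM. The low group ended at 58.9 CPM and the next cell had 68.2 CPM, while the high group began at 1332 CPM and the cell below it had 1307 CPM. At the pigment minimum, the last cell inside had 5023 CPM and the first outside had 4942 CPM.

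Both ranking genes were present in the high cells. Of the 54 high cells, 0 had under 100 CPM of either gene. Among the 54 low cells, 12 had 0 counts of Car9, 2 had 0 counts of Bnip3 and 15 had under 1 CPM of both summed. Over the 4 rank groups from low to high, the median of Car9 was 0.68, 53.4, 184 and 1234 CPM, and that of Bnip3 was 3.05, 99.6, 470 and 1096 CPM. Across the 216 cells, Spearman's rho between the 2 genes was 0.782, and it lay between 0.461 and 0.825 within the 7 replicates. These values come from the ranking itself and describe it.

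High and low cells occurred together in 6 samples. Replicate 1 held 9 high and 7 low cells, replicate 2 held 4 and 3, replicate 3 held 2 and 21, replicate 5 held 14 and 3, replicate 6 held 21 and 11, and replicate 9 held 4 and 5. Replicate 7 had 4 low cells of 11 and no high cell, which allows a high share of up to 27.3% for counting error alone, and it entered no paired test. Replicate 3 stood apart, with 21 of its 32 ranked cells in the low group. By sorted class, the high group took 51 of 189 DP cells and 3 of 27 CTC cells, and the low group took 42 DP and 12 CTC cells, of which 8 were from replicate 3.

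**Figure D1:**
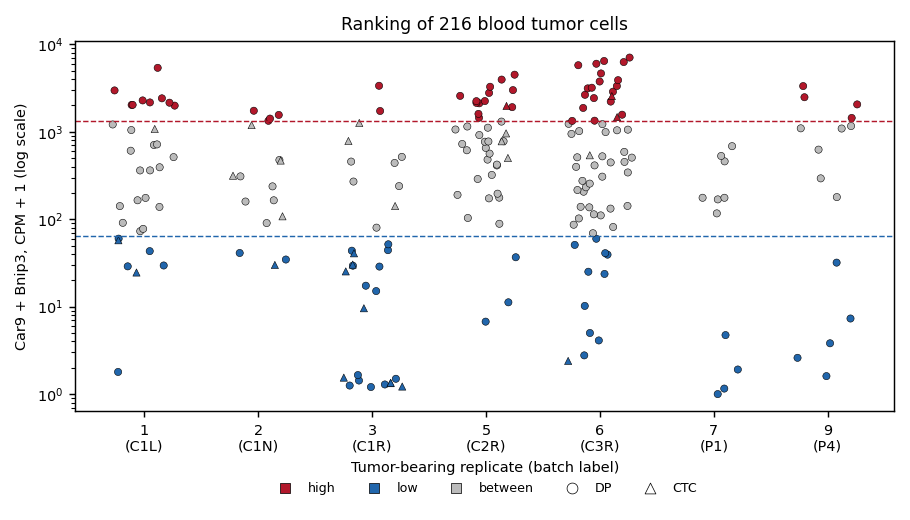
Summed CPM of Car9 and Bnip3 (plus 1, log scale) in each of the 216 ranked blood tumor cells, by replicate, with circles for DP and triangles for CTC cells and dashed lines at the borders of the high and low groups. Replicates 5 and 6 hold 14 and 21 of the 54 high cells, replicate 3 holds 21 of the 54 low cells, and replicate 7 has no cell above the upper line.

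Cultured B16F10 cells, the control for the tumor line, did not reach the high range. Their median sum of Car9 and Bnip3 was 122 CPM and their highest was 1257 CPM, so 0 of 22 lay at or above 1332 CPM, which allows a share of up to 13.6%. Car9 had 0 counts in 11 of these 22 cells while Bnip3 was counted in all of them. The control classes labelled CDP, Duplike and PltLike had 0 of 18, 0 of 24 and 0 of 24 cells in the high range, which allow up to 16.7%, 12.5% and 12.5%. Each control is 1 sample, so these values have no replicate check. White blood cells of tumor-bearing blood, which should lack the programme of a melanoma cell, had a median of 1.26 CPM with 1 of 28 cells in the high range.

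Sequencing depth differed between the ends of the ranking by less than its spread between samples. Ranked blood cells had 4.75 to 89.8 Mcounts (megacounts), with a median of 18.9 Mcounts. The median cell held 23.4 ± 10.6 Mcounts in high and 21.4 ± 8.19 Mcounts in low cells (SD over n = 6 samples, exact two-sided sign-flip permutation p = 0.25). Genes detected per cell were 8745 ± 540 and 8747 ± 710 (SD, n = 6, exact permutation p = 1.0). The share of counts from mitochondrial DNA was 2.71% ± 0.42 in high and 3.07% ± 0.51 in low cells, lower in high cells of 5 of 6 samples (SD, n = 6, exact permutation p = 0.0625, adjusted p = 0.562 over 12 measures). The smallest p that 6 samples allow is 0.0312. Summed depths of the groups ranged from 26.2 Mcounts for the 2 high cells of replicate 3 to 355 Mcounts for the 21 high cells of replicate 6.

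Cells with markers of other cell types were present at both ends. Of 68 markers of leukocytes, myeloid cells, B cells, neutrophils, platelets, red cells, endothelium and MHC class II, 42 could be tested between high and low sums and 0 were called, the smallest unadjusted p being 0.116 for the B-cell gene Cd79b, with a log2 difference of 4.54 ± 2.60 (SE) and higher in high sums of 4 of 6 samples. The endothelial marker Cldn5 had 0 counts in all sums, Gp6 had 0 in all high sums, and Mmp8, Camp and Cdh5 had 0 in all low sums. Pan-leukocyte markers had a median log2 difference of 1.62, with 10 of 12 above 0, in sums of counts. B-cell markers had a median of 4.44 with 5 of 5 tested above 0, and platelet markers 1.00 with 5 of 5 above 0. Myeloid markers had a median of 0.03 with 6 of 11 above 0, and MHC class II 0.08 with 3 of 6. The 1 neutrophil marker tested was at 4.40, the 1 red-cell marker at -0.89 and the 1 endothelial marker at -0.63. Samples differed in sign. Cd79a and Coro1a were higher in high sums of replicates 1, 2, 5 and 6. Both were lower in replicates 3 (-3.97 and -4.65) and 9 (-2.93 and -4.21). The part of these markers in the gene differences was not tested. By cell, the pan-leukocyte list summed to a sample median of 50.6 to 181 CPM in high and 38.1 to 1453 CPM in low cells. Summed over all marker lists, 10 of 54 high and 7 of 54 low cells had 1000 CPM or more.

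In contrast to those sums, single low cells held the most B-cell markers. A low cell of replicate 9 had 1739 CPM of them and 4201 CPM of MHC class II genes. A low cell of replicate 3 had 1152 and 2104 CPM. No high cell had more than 1444 CPM of B-cell markers. Highest were 2 other low cells of replicate 9. They had 9801 and 5528 CPM of B-cell markers and 34085 and 25609 CPM of MHC class II genes. Their glycolysis lists summed to 5200 and 2626 CPM, and their pigment sums of 5828 and 6228 CPM lay near the minimum of 5000. Without any cell of 1000 CPM or more of those markers, 17 genes were called higher, 15 of them among the 20 below. Without replicate 9, 19 genes were called higher and 1 lower, with 16 of the 20 below among them and Hk1, Pdk3, Pkm and Plod1 lost.

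The high sums carried a higher expression of glycolytic enzymes and of hypoxia-inducible genes. Counts were summed over the high and over the low cells of each of the 6 samples and compared within samples. Of 10841 genes tested outside the rule, 20 (0.184%) were higher and 0 (0.0%) were lower in high sums at an adjusted p of 0.05 (edgeR's quasi-likelihood test, Benjamini-Hochberg adjustment over all genes). All 20 were higher in 6 of 6 samples, with log2 differences from 0.95 to 3.42 and a median of 1.65. They comprised 10 enzymes of glycolysis, 5 listed targets of hypoxia-inducible factors, and Bsg, Pgm1, Pdk3, Anxa4 and Plod1. In 19 of the 20, every high sum exceeded every low sum, which was so of 0.803% of all genes tested, and the reverse held for 0.304%.

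The count rested on individual samples. It was 8 without replicate 1, 13 without replicate 2, 10 without replicate 3 and 10 without replicate 6. At an unadjusted p under 0.05, 320 genes were higher and 234 lower, together 5.11% of those tested, and DESeq2 called 198 higher (1.83%) and 86 lower (0.793%). CTC cells were fewer in the high group (3 against 12), and with DP cells alone 17 genes were called, 15 of them among the 20. The sign was positive in every sample for 3.05% of genes and negative in every sample for 2.79%.

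Lists are described by their counts, beside 48.9% of all tested genes above 0 and a median log2 difference of -0.02. The ranking used 2 members of the hypoxia programme, so the direction of its other members is given as a description. Members that failed the filter on low counts have no value in these counts. Lists can share members, so their counts and medians are not separate observations. Slc2a1 and Pdk1 are listed both as targets of hypoxia-inducible factors and under glycolysis.

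Among targets of hypoxia-inducible factors, 5 of the 27 tested rose and 0 fell, and the median difference was 2.05 with 27 above 0. Of the 34 listed, 7 had too few counts to test, namely Egln3, Stc2, Angptl4, Nrn1, Car12, Ppfia4 and Ndufa4l2. The 5 that rose were Ero1a, Higd1a, Fam162a, Bnip3l and Plod2.

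Ero1a (chr14:45283087-45318572) encodes the oxidase that drives disulfide formation in the endoplasmic reticulum. Its counts were 1393, 469, 1414, 806, 2746 and 637 CPM in the high sums of replicates 1, 2, 3, 5, 6 and 9, against 95.3, 92.6, 81.1, 134, 84.9 and 102 CPM in the low sums. The low sums were alike and the high sums spread widely, with replicate 2 lowest and replicate 6 highest, and the groups did not overlap. The log2 difference was 3.42 ± 0.39 (SE; edgeR adjusted p = 0.0126).

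Fam162a (chr16:36043844-36071561), a mitochondrial protein linked to cell death under hypoxia, had the smallest p. High sums had 617, 590, 805, 749, 757 and 845 CPM and low sums 104, 124, 121, 174, 104 and 111 CPM, in the same order of replicates. The lowest high sum was above 3 times the highest low sum. The log2 difference was 2.58 ± 0.16 (SE; edgeR adjusted p = 0.0011).

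Higd1a encodes a small protein of the inner mitochondrial membrane that associates with the respiratory chain. Its counts ranged from 426 to 883 CPM with a median of 658 in high sums and from 69.4 to 147 CPM with a median of 103 in low sums. Replicate 2 had both the lowest high and the highest low value. The log2 difference was 2.66 ± 0.22 (SE; edgeR adjusted p = 0.0026).

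Bnip3l, the paralog of Bnip3 and likewise a receptor for mitophagy, had 184 to 417 CPM (median 301) in high and 41.1 to 131 CPM (median 68.0) in low sums. Its log2 difference was 2.05 ± 0.24 (SE; edgeR adjusted p = 0.0154). Plod2, a lysyl hydroxylase that prepares collagen for cross-linking, had 175 to 396 CPM (median 230) in high and 68.4 to 97.6 CPM (median 73.0) in low sums. Its log2 difference was 1.69 ± 0.19 (SE; edgeR adjusted p = 0.0126). Neither gene's groups overlapped.

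Other targets had differences as large that did not pass the threshold. P4ha1, a prolyl hydroxylase of collagen, had a log2 difference of 2.09 ± 0.31 (SE; edgeR adjusted p = 0.0554). Pdk1, the kinase that restrains pyruvate dehydrogenase, had 129 to 298 CPM in high and 2.57 to 121 CPM in low sums, with a difference of 3.66 ± 0.68 (SE; edgeR adjusted p = 0.136). Vegfa, the ligand for blood vessel growth, was sparse, with 2.88 to 40.9 CPM in high and 0.37 to 3.47 CPM in low sums and an edgeR adjusted p of 0.92. The glucose carrier Slc2a1 was higher in 5 of 6 samples, with a median of 441 CPM in high and 86.7 CPM in low sums, and its groups overlapped (log2 difference 2.12 ± 0.53, SE; edgeR adjusted p = 0.391). The groups of P4ha1 and Pdk1 did not overlap, and those of Vegfa did.

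Glycolysis had the most called members of any list. Of its 21 genes, all tested, 10 rose and 0 fell, 19 were above 0, and the median log2 difference was 1.39. The called genes covered hexokinase to lactate dehydrogenase, in pathway order Hk1, Gpi1, Pfkl, Aldoa, Tpi1, Pgk1, Pgam1, Eno1, Pkm and Ldha.

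Ldha encodes the subunit of lactate dehydrogenase that turns pyruvate into lactate. It had 10780, 10760, 14650, 8332, 10120 and 11290 CPM in the high sums of replicates 1, 2, 3, 5, 6 and 9, and 3807, 4014, 3554, 2928, 3376 and 3681 CPM in the low sums. The lowest high value, in replicate 5, was above 2 times the highest low value, in replicate 2. The log2 difference was 1.61 ± 0.11 (SE; edgeR adjusted p = 0.00156).

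Pfkl, the liver-type phosphofructokinase that commits sugar to glycolysis, had the largest difference of the called enzymes. It had 1537 to 2258 CPM (median 1815) in high and 231 to 833 CPM (median 348) in low sums, with the highest low value in replicate 5. The log2 difference was 2.35 ± 0.25 (SE; edgeR adjusted p = 0.00894).

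Pgk1 (chrX:106187100-106203699), an enzyme that makes ATP within glycolysis, had 3696 to 4580 CPM (median 4106) in high and 1183 to 1905 CPM (median 1633) in low sums. Its log2 difference was 1.39 ± 0.13 (SE; edgeR adjusted p = 0.00495). Gpi1, which converts glucose phosphate to fructose phosphate, had 3380 to 4739 CPM in high and 1231 to 1800 CPM in low sums. Its difference was 1.46 ± 0.12 (SE; edgeR adjusted p = 0.00208). Neither gene's groups overlapped.

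The other called enzymes had log2 differences of 1.37 for Tpi1, 1.23 for Aldoa, 1.17 for Pkm, 1.12 for Pgam1 and 0.99 for Eno1. Eno1 has the near-identical copy Eno1b, so its counts are uncertain where reads fit both. Hk1, the hexokinase that traps glucose in the cell, was the called gene whose groups overlapped, with 227 to 645 CPM in high and 59.6 to 315 CPM in low sums. It was higher in 6 of 6 samples, by 1.32 ± 0.18 on the log2 scale (SE; edgeR adjusted p = 0.0296), and replicate 9 had the lowest value of both groups.

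Members of the glycolysis list that were not called include the lactate carriers. Slc16a3, which exports lactate, had 160 to 467 CPM in high and 0.45 to 95.3 CPM in low sums, a difference of 3.99 ± 1.12 (SE; edgeR adjusted p = 0.518). Slc16a1, a related carrier, had a difference of -0.59 ± 0.50, and the glucose carrier Slc2a3 had -2.13 ± 1.80 (SE; edgeR adjusted p = 1.0 for both). Those 2 were the only members of the list below 0. Gapdh was at 79.9 to 501 CPM in high and 23.1 to 77.7 CPM in low sums (1.99 ± 0.42, SE; edgeR adjusted p = 0.238), and it has many near-identical copies in the genome, so its counts are uncertain.

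**Figure D2:**
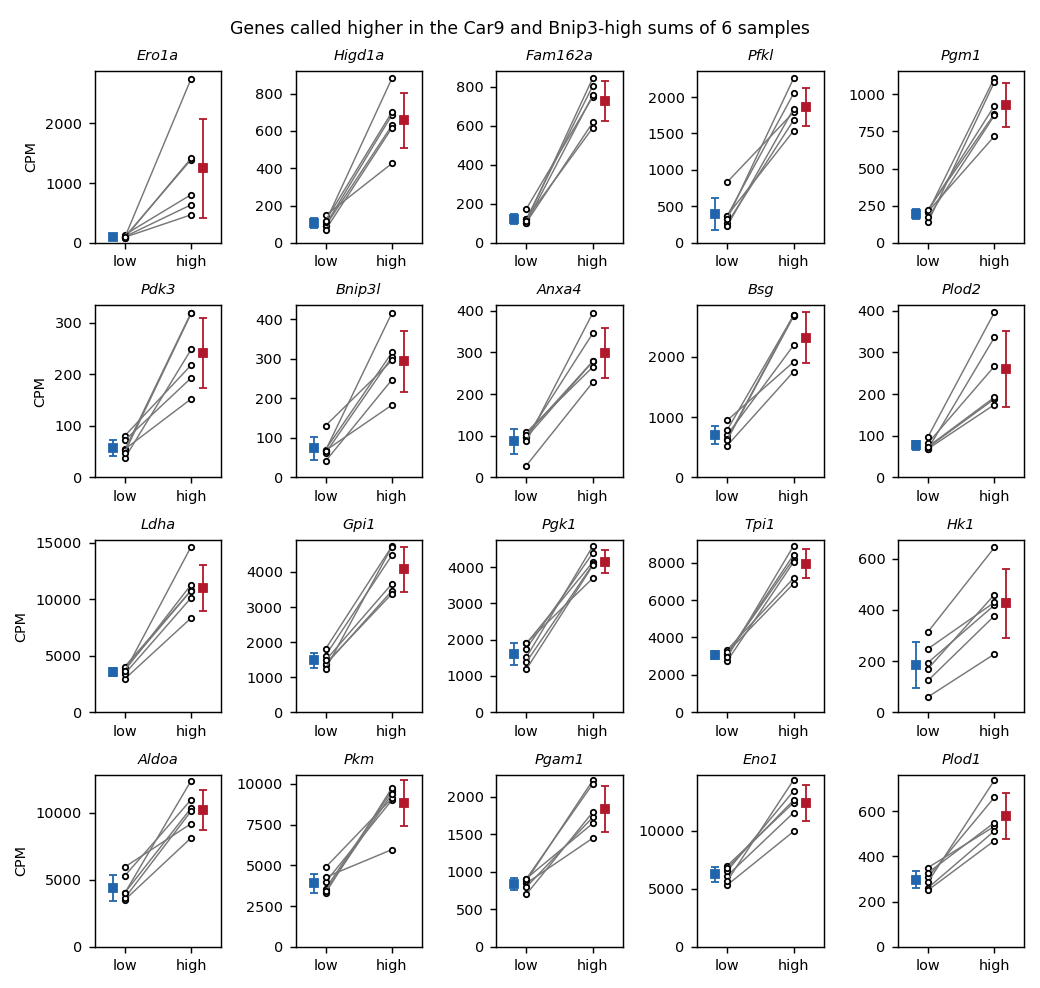
CPM of the 20 called genes in the low and high sums of 6 samples, with lines joining the sums of a sample and squares with bars for the mean and SD of each group. Every line rises, and Hk1 is the panel in which the groups overlap.

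5 called genes lay outside both lists. Bsg encodes basigin, the partner that carries lactate transporters to the cell surface. It had 1757 to 2692 CPM (median 2435) in high and 529 to 947 CPM (median 672) in low sums, a log2 difference of 1.72 ± 0.16 (SE; edgeR adjusted p = 0.00402). Pgm1, as the files name it, encodes a phosphoglucomutase that links glycogen to glycolysis. It had 718 to 1110 CPM (median 896) in high and 139 to 224 CPM (median 209) in low sums, a difference of 2.25 ± 0.17 (SE; edgeR adjusted p = 0.00208).

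Pdk3, like Pdk1 a kinase that restrains pyruvate dehydrogenase, had 152 to 320 CPM in high and 37.2 to 80.5 CPM in low sums. Its log2 difference was 2.07 ± 0.27 (SE; edgeR adjusted p = 0.0296). Anxa4, a calcium-dependent membrane protein, had 228 to 395 CPM in high and 28.6 to 108 CPM in low sums. Its difference was 1.87 ± 0.25 (SE; edgeR adjusted p = 0.0296). Plod1, like Plod2 a lysyl hydroxylase, had 470 to 738 CPM in high and 250 to 350 CPM in low sums. Its difference of 0.95 ± 0.13 was the smallest of the called genes (SE; edgeR adjusted p = 0.0422). None of these 5 genes had overlapping groups.

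Subunits and regulators of the factors themselves were not called, 0 of 11 tested, with 3 at an unadjusted p under 0.05, 7 above 0 and a median log2 difference of 0.46. Hif1a, the oxygen-sensitive subunit, had 318 to 622 CPM in high and 205 to 292 CPM in low sums without overlap, a difference of 0.73 ± 0.16 (SE; edgeR adjusted p = 0.257). Vhl had a difference of 1.34 ± 0.31 (SE; edgeR adjusted p = 0.314), and Egln1, a hydroxylase that is itself a target, had 2.62 ± 0.73 (SE; edgeR adjusted p = 0.511). Epas1, the alternative subunit, was sparse in both groups, with 0.030 to 26.2 CPM in high and 0.55 to 45.6 CPM in low sums. Protein of these genes, through which oxygen acts, was not measured.

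Lists next to the hypoxia programme had few called members, and some of their members are also in the lists above. Bnip3l of mitophagy is a listed HIF target, as are P4ha1, P4ha2, Plod2 and Loxl2 of the collagen-modifying enzymes. Slc16a1 and Slc16a3 of the acid carriers are also in the glycolysis list. Mitophagy and autophagy had 1 of 14 called, Bnip3l, with a median of 0.23. Carbonic anhydrases and acid carriers had 1 of 9, Bsg, with a median of -0.35, and collagen-modifying enzymes had 2 of 8, Plod1 and Plod2, with a median of 1.32. The respiratory chain encoded in the nucleus had 0 of 26 called, 9 above 0 and a median of -0.05. Genes of mitochondrial DNA had 0 of 13 called and 3 above 0, with mt-Nd1 at -0.61 ± 0.12 (SE; edgeR adjusted p = 0.181).

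Genes for growth and stress had 0 called members. DNA replication had 2 of 18 above 0 and a median log2 difference of -0.48, and mitosis had 3 of 20 above 0 and a median of -0.34. At an unadjusted p under 0.05, 0 genes of either list passed. Members of both lists differed in sign between samples. Gins2 of DNA replication differed by 4.67 in replicate 5 and by -3.81 in replicate 3. Ccnb1 of mitosis differed by 3.71 and -8.81 in the same order. Lig1, Pcna, Tyms, Birc5, Ccnb2 and Mki67 were likewise above 0 in replicate 5 and below 0 in replicate 3. The list medians thus do not describe a fall shared by every sample. Stress lists differed in direction. Genes of the unfolded protein and integrated stress response had 10 of 16 above 0 and a median of 0.08. Immediate-early genes had 8 of 15 above 0 and a median of 0.32. Heat-shock chaperones had 2 of 9 above 0 and a median of -0.37. Hspe1, the small mitochondrial chaperonin, had 264 to 369 CPM in high and 385 to 611 CPM in low sums without overlap (-0.57 ± 0.13, SE; edgeR adjusted p = 0.282). Its partner Hspd1 was at -0.63 ± 0.15 (SE; edgeR adjusted p = 0.368), lower in high sums of 6 of 6 samples.

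The genes with the smallest p among those lower in high sums were Hnrnpab, Cd9, Fkbp4, Wdr12 and Jpt2, and none passed the threshold. Hnrnpab, an RNA-binding protein, had 166 to 257 CPM in high and 255 to 457 CPM in low sums (-0.74 ± 0.13, SE; edgeR adjusted p = 0.129). Cd9, a tetraspanin of the cell surface, had a difference of -1.05 ± 0.22 (SE; edgeR adjusted p = 0.218).

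Pigment genes outside the rule had few differences. Of 15 melanocyte genes tested, 0 were called, 2 passed an unadjusted p of 0.05 and 7 were above 0, with a median of -0.02. Tyr, the enzyme that starts melanin synthesis, had 670 to 1357 CPM in high and 467 to 761 CPM in low sums (0.78 ± 0.16, SE; edgeR adjusted p = 0.20). The 4 pigment genes of the rule summed to a higher sample median in high cells of 6 of 6 samples, 29718 ± 7684 against 23586 ± 8682 CPM (SD, n = 6), which has no test because the rule used them. Over all cells of a group, the median sum was 24429 CPM in low and 25329 CPM in high cells, and genes differed in direction. Pmel had a median of 7394 CPM in low and 5792 CPM in high cells. In the same order, Dct had 7263 and 8473 CPM, Tyrp1 7995 and 9726 CPM, and Mlana 1249 and 1295 CPM.

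**Figure D3:**
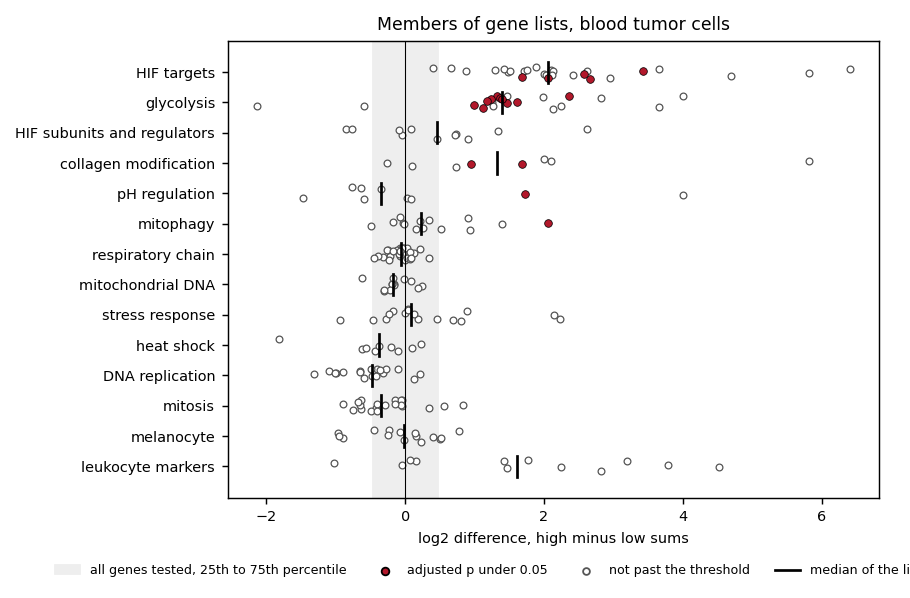
Log2 difference of high minus low sums for members of 14 lists, with filled points for an adjusted p under 0.05, bars for the list median and a grey band from the 25th to the 75th percentile of all genes tested. The medians of HIF targets (2.05) and glycolysis (1.39) lie right of the band, and those of DNA replication (-0.48) and mitosis (-0.34) lie left of 0.

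Values also followed the ranking between its ends. All 20 called genes had a median that was higher in each next rank group. Ero1a had medians of 66.7, 74.8, 262 and 714 CPM from the low to the high group, and Fam162a had 109, 203, 470 and 700 CPM. Ldha had 3387, 5279, 7859 and 9941 CPM. Ero1a thus moved little between the lower 2 rank groups, while the other 2 genes stepped at each. The rank groups come from the ranking and are no independent evidence.

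Cell by cell, the listed HIF targets outside the rule summed to medians of 1249, 1889, 3447 and 5356 CPM over the 4 rank groups, and the glycolysis list to 27805, 34072, 49844 and 64581 CPM. Averaged over 6 samples, the sample median of glycolysis was 63983 ± 6517 CPM in high and 26562 ± 2978 CPM in low cells (SD), and that of HIF targets was 6004 ± 2969 and 1417 ± 365 CPM (SD). Both sums were higher in 6 of 6 samples, and no test is given for a sum over chosen members. Across the 216 cells Spearman's rho with the ranking was 0.907 for HIF targets and 0.855 for glycolysis, against -0.074 for total counts. Each cell was 1 library, so the ranking genes and the listed genes of a cell share the denominator of their CPM.

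**Figure D4:**
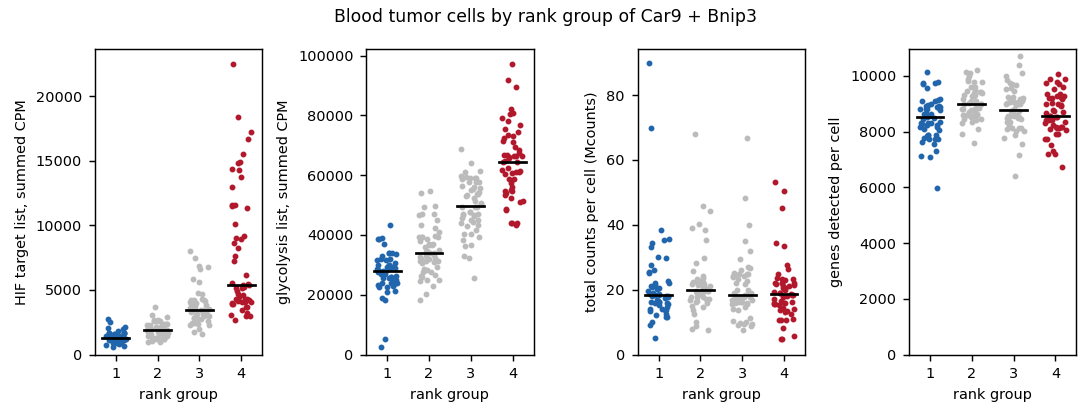
Summed CPM of the HIF target and glycolysis lists, total counts and detected genes in each ranked blood cell by rank group (1 low, 4 high), with a bar at the median. The medians of both lists rise at each rank group (1249 to 5356 CPM and 27805 to 64581 CPM), while depth and detected genes show no such step.

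Ranked by 1 gene alone, the other gene followed. With cells ranked by Bnip3 alone, Car9 differed by 6.78 ± 1.37 on the log2 scale (SE), and 31 genes were called. With cells ranked by Car9 alone, Bnip3 differed by 4.21 ± 0.73 (SE), only 4 samples held both groups, and edgeR called 0 genes while 582 passed an unadjusted p of 0.05. Each gene was part of the rule, so these differences are descriptions.

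Lung tumor cells gave the same measure in cells that the blood ranking had not used. Of 192 lung cells labelled DP or CTC, 88 met the pigment minimum, and their own ranking gave 22 high and 22 low cells. Only replicates 3, 7 and 8 held both, with 1 and 1, 10 and 6, and 11 and 5 cells. The low group of replicate 3 was 1 cell of 0.28 Mcounts with 23.6% of them from mitochondrial DNA. Replicates 3 and 7 also gave blood cells, so the tissues share samples.

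No gene passed the threshold in lung. In 3 samples edgeR called 0 of 10112 genes in either direction (0.0%), 179 passed an unadjusted p of 0.05, and DESeq2 called 85 higher (0.841%) and 210 lower (2.08%). All 20 genes called in blood had differences above 0 in lung, with a median of 2.42, beside 62.5% of all genes above 0. Of these 20, 6 passed an unadjusted p of 0.05 with edgeR in lung, and 4 were among the genes that DESeq2 called there. Without replicate 3, all 20 were again above 0, with a median of 1.60 and a range from 0.58 for Eno1 to 4.73 for Ero1a, beside 53.3% of all genes, and edgeR called 0 while 742 passed an unadjusted p of 0.05. The lung cells were chosen by the same 2 genes.

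Without replicate 3, Fam162a differed in lung by 2.82 ± 0.22 (SE; edgeR adjusted p = 0.26), Higd1a by 3.32 ± 0.23 (SE; edgeR adjusted p = 0.26) and Bnip3l by 3.23 ± 0.26 (SE; edgeR adjusted p = 0.26). DNA replication had 0 of 18 genes above 0 there, with a median of -1.76, and mitosis had 1 of 20, with a median of -1.01. The difference of these lists between tissues was not tested.

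The difference between tissues was tested in 1 fit of 12214 genes over both. EdgeR called 0 genes in either direction (0.0%), and 315 passed an unadjusted p of 0.05. Ero1a differed more in lung than in blood by 1.84 ± 0.74 on the log2 scale (SE), with an unadjusted p of 0.0295 and an edgeR adjusted p of 1.0. Bnip3l differed more by 1.99 ± 0.85 (SE), with an unadjusted p of 0.0367 and an edgeR adjusted p of 1.0. Neither difference passed the adjusted threshold, and the lung side rests on 3 samples, 1 of them with single cells.

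**Figure D5:**
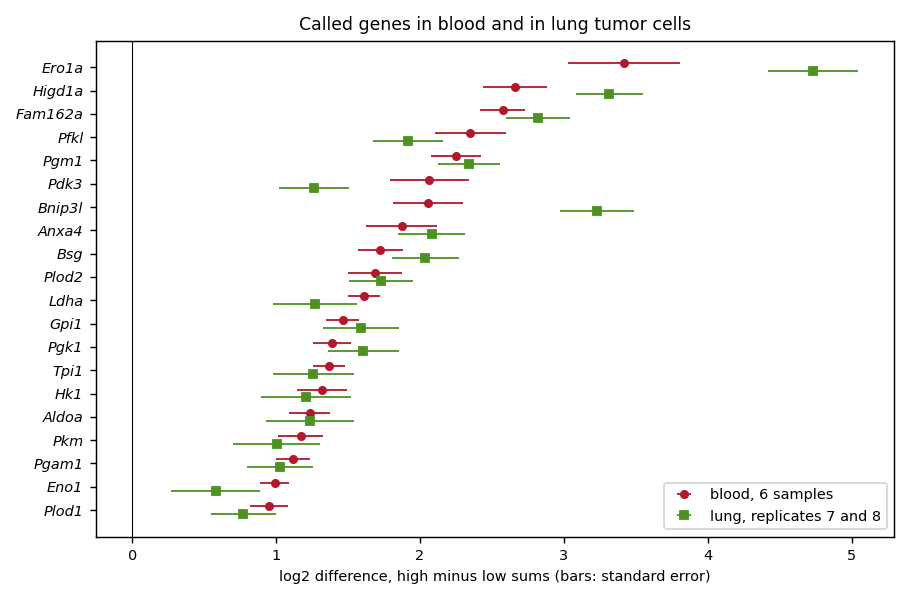
Log2 difference of high minus low sums for the 20 genes called in blood, with circles for 6 blood samples, squares for lung replicates 7 and 8, and bars for the standard error. Every point lies above 0, and the lung value of Ero1a (4.73) is the farthest out.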

How the data were processed

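RNA of single cells was read by Smart-seq2. Per the submitters' processing notes, the tools were Trim Galore, HISAT2, SAMtools and featureCounts with mm10, and BWA and Picard, with no versions. The authors deposited raw counts per gene and cell (21138 genes, 648 cells), with no molecular identifiers, so intervals and floors (3 counts, or 3 cells of a group) cover counting error only. No 2 cells had identical counts. No doublet caller was run.

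CPM per cell, the ranking and sums per sample were computed from the deposited counts. CPM of sums is scaled by TMM. Sums were tested with edgeR 4.0.16 (filterByExpr, quasi-likelihood, R 4.3.3), Benjamini-Hochberg adjustment and a threshold of 0.05. The sample was a replicate block, since high and low cells were sorted from the same samples. The 6 genes of the rule stayed in the totals and were not tested. Depth and marker measures were compared by exact sign-flip permutation. The fits were tested on simulated data. Alternatives covered scaling, filters, DESeq2 1.42.0, limma 3.58.1, the ranking, cells used and each sample left out; 2 were chosen after seeing the data (a filter of 10 CPM on the sums, and cells under 1000 CPM of other cells' markers).

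The members and the 27 gene lists were chosen with earlier results of these data known. Named genes are those of the rule, the members of the HIF target, glycolysis and HIF regulator lists, the 12 largest called differences in each direction with a mean of 20 CPM or more and 1 sign in every sample (or the 5 of smallest p where fewer than 5 passed), and up to 4 of smallest p per other list; the remaining called genes were named because they are called. Gene symbols, coordinates and promoters follow RefSeq on GRCm38.p6, and 7 listed genes were matched by older symbols.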

Additional observations from a re-analysis of the deposited data

Results flagged for a closer look

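For 39 measures, the difference of high minus low was checked for 1 sample far from the other 5, and 7 had one; chance alone gives about 1 in 20. Ldha differed by 2.04 (log2) in replicate 3, against 1.42 to 1.62 in the others. Gpi1 differed by 1.94 (log2) in replicate 6, against 1.29 to 1.47 in the others. Higd1a differed by 1.54 (log2) in replicate 2, against 2.57 to 3.14 in the others. All 3 genes kept their direction in every sample.

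The other 4 were markers of other cell types, as the sample median of their summed CPM. In replicate 9, high minus low was -1734 CPM for B-cell markers, -4186 CPM for MHC class II and -1402 CPM for pan-leukocyte markers, where the other samples lay between -1.02 and 7.15, between -1.27 and 25.2, and between -1.70 and 142 CPM. In replicate 2 it was -460 CPM for myeloid markers, against -38.4 to 30.3 CPM in the others. Their part in the gene differences was not tested, and without replicate 9, 19 genes were called higher and 1 lower, 16 of them among the 20, while without replicate 2 the count was 13, all among the 20.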

How the results depend on the processing

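The 20 genes called in blood kept a difference above 0 under every alternative run, and the count moved. It was 32 (1 lower) without a filter on low counts, 284 with DESeq2, 33 with no replicate block (19 of the 20 among them), 45 (4 lower) and 65 (10 lower) with ranks cut into 3 and 2 groups, 31 (1 lower) ranked by Bnip3 alone, 31 (1 lower) with at least 5 cells in each group, which left only replicates 1 and 6 and kept 14 of the 20, 0 ranked by Car9 alone and 0 for the mean over cells of log2(CPM + 1) in limma. At an unadjusted p under 0.05, 582 genes passed ranked by Car9 alone and 1060 in limma. Leaving out 1 sample gave 8 to 21. The cause was not tested. The other alternatives gave 17 to 23: other scalings, the filter of 10 CPM, ranks within samples, at least 2 cells, DP cells only, pigment minimums of 1000 and 10000 CPM, cells thinned to 1 Mcount, the samples with C labels (the same as without replicate 9) and cells with few other markers. Plod1 was lost most often, in 19 of 26 alternatives, then Hk1 in 15, Pdk3 in 13 and Anxa4 in 12. In lung the count of 0 became 295 with DESeq2, and leaving out 1 sample gave 0 to 2. The difference between tissues gave 2 genes without a filter and 0 with any sample left out. Vegfa was at 0 counts in 31 of 54 low and 7 of 54 high cells. Sums weight deep cells, and thinning every cell to 1 Mcount called 21 genes, 17 of the 20 among them.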
